A study of Mus musculus with 2 samples.

Results

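The 39 genes described here encode the transcription factor ATF4, the kinases and phosphatase subunits around it, partner and target genes of its stress response, and enzymes and transporters of amino acids. They were taken by symbol, as named factors, targets, enzymes and transporters of this response, and all 39 were found among the 55487 genes listed. The study asked which genes of islet beta cells depend on the Myt transcription factors under normal glycaemia, and RNA was sequenced from sorted pancreatic beta cells of mice 2 months old. The mice carried floxed alleles of the Myt family, written MytF/F, Myt2F/F and Myt3F/F, together with RipCre, a Cre recombinase driven by the rat insulin promoter. The floxed genes appear in the files as Myt1, Myt1l (Myt2) and St18 (Myt3). Males and females were pooled. The 2 libraries formed 1 group, and library 2 is named a duplicate with no word on whether other mice were used. Control cells were not analysed here, so no value compares mutant with control cells, and a difference between the libraries may be technical.

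The integrated stress response is a brake on protein synthesis. Kinases that sense ER stress, heme shortage, viral RNA or uncharged tRNA phosphorylate the initiation factor eIF2, which lowers general translation and favours translation of the Atf4 mRNA. ATF4 protein then pairs with other leucine-zipper factors and activates genes for amino acid synthesis and uptake, and, under lasting stress, Ddit3, which encodes CHOP. Because ATF4 is controlled largely at translation, its mRNA level does not give its protein level. Beta cells make large amounts of proinsulin in the ER and are known to depend on the ER stress kinase encoded by Eif2ak3.

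Depth was 50121771 counted reads in library 1 and 39003197 in library 2. Transcripts of the floxed genes were still counted, at 77.6 and 65.4 CPM (reads scaled to the library total) for Myt1, 44.5 and 39.0 CPM for Myt1l and 72.7 and 56.5 CPM for St18. Whole-gene counts do not resolve the deleted exons and no control was analysed here, so these values do not check the deletion. The 9 beta-cell markers examined, Ins1, Ins2, Iapp, Mafa, Pdx1, Nkx6-1, Slc2a2, Ucn3 and G6pc2, were all detected and took 18.0% and 18.4% of the reads. Hormone transcripts of other endocrine cells were also high, with the delta-cell hormone Sst at 1515 and 1100 CPM and the PP-cell hormone Ppy at 632 and 879 CPM. Both lay above Pdx1 at 247 and 232 CPM and far below Ins2 at 103810 and 110908 CPM. The other delta-cell markers were lower, with Rbp4 at 124 and 111 CPM and Hhex, Lepr and Ghsr at 23.4 CPM or less. The other PP-cell marker, Tspan8, stood at 3.93 and 4.03 CPM. The 20 acinar markers were all higher in library 2, with sums of 170 and 761 CPM. Delta-cell markers summed to 1660 and 1247 CPM, alpha-cell markers to 952 and 736 CPM and PP-cell markers to 635 and 883 CPM. In bulk RNA, fewer cells of a type and less RNA per cell cannot be told apart. The cells had been dissociated with warm trypsin and sorted, and no cells handled otherwise were analysed.

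Most of the 39 genes were expressed above the level of the typical gene. A total of 38 reached 1 CPM in both libraries, a limit met by 24.4% of all listed genes. The exception was Cth, with 17 and 15 reads. Together the 39 genes accounted for 0.417% and 0.473% of all reads. Their median level was 36.7 TPM (a share of transcripts that corrects for gene length), against 14.8 TPM over the 13566 detected genes, and 29 of the 39 lay above that value. A total of 10 genes had a mean of 100 TPM or more, 20 lay between 10 and 100 TPM, and 9 lay under 10 TPM. The SD after a mean is that between the libraries (n = 2).

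**Figure D1:**
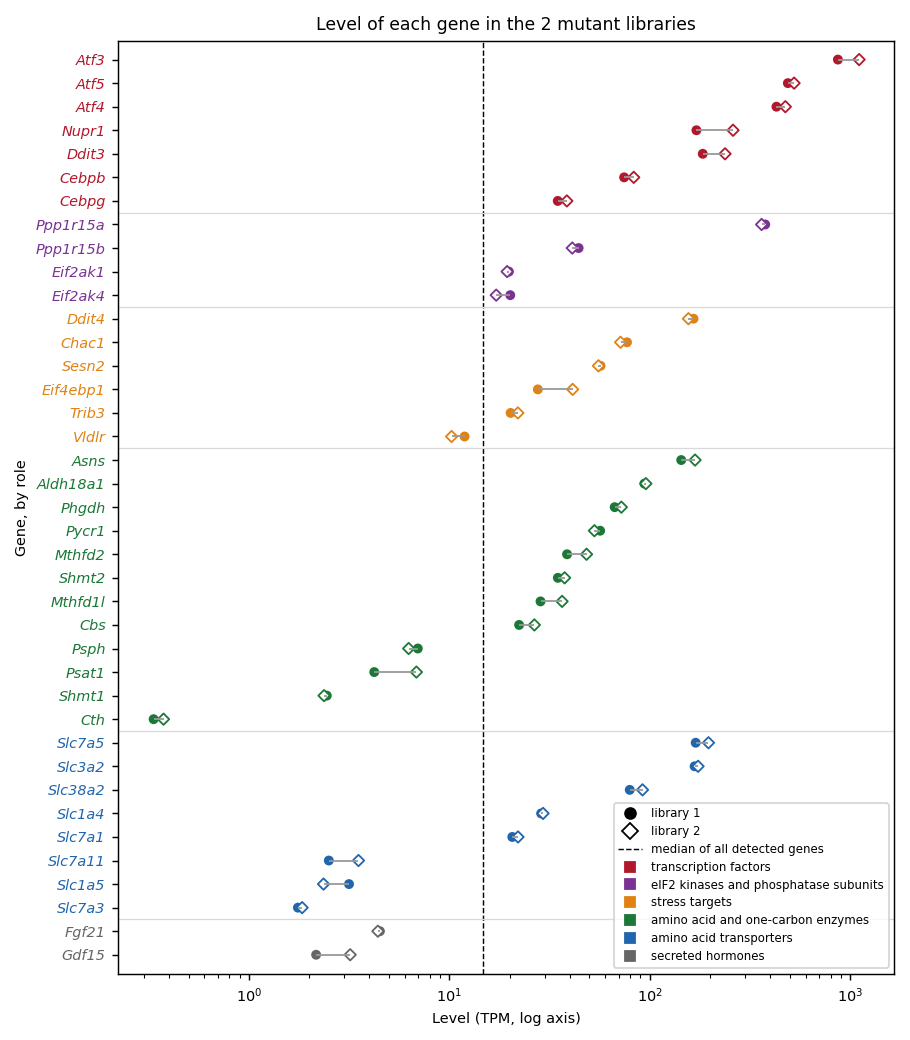
Level of each of the 39 genes in TPM (log axis), with library 1 as filled circles and library 2 as open diamonds, coloured and grouped by role. The dashed line is the median of all detected genes, 14.8 TPM. Atf3, Atf5, Atf4 and Ppp1r15a lie highest, and Cth lies lowest.

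The order of the genes was similar in both libraries. From library 1 to library 2, no gene moved by more than 5 places in the order by TPM, and 19 of 39 kept their place. Of the 38 neighbouring pairs in the order, 18 had ranges that did not overlap between the libraries and 20 had ranges that did. The top of the order was separated, from Atf3 through Atf5, Atf4 and Ppp1r15a down to Nupr1. Nupr1, Ddit3, Slc7a5 and Slc3a2 then followed with overlapping ranges from each to the next.

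ATF4 and its C/EBP partners recognise a composite DNA element, TGATGNAA, known as the C/EBP-ATF response element. It was searched on both strands, allowing any base at N, in the 250 bases before and 50 bases after each start in RefSeq (GRCm38.p6). Of the 39 genes, 33 had an entry, and 10 of these (30.3%) held the element. Of all 32851 promoters of the same length, 3.97% held it, and of all 27025 genes with an entry 4.51% did. A match is a description of the letters and not evidence of binding. Many of the 39 genes were chosen as named targets of this response, and all entries include many non-coding genes. The difference between these shares was therefore not tested. The 8 genes whose matches lay wholly upstream of a RefSeq start with their flanks are printed to show the letters around the element and its orientation. The likeness of the elements themselves was set by the search. Each is written 5′ to 3′ on the gene's strand with the element in capitals, where TTGCATCA is the element read from the other strand.
Atf3: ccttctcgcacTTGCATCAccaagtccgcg
Chac1: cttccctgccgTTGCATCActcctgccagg
Slc7a11: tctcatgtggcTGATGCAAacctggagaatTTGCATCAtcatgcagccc
Asns: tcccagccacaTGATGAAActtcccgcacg
Fgf21: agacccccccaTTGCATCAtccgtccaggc
Nupr1: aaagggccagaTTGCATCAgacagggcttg
Pycr1: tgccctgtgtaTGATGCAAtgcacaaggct
Vldlr: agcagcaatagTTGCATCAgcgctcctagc

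These stretches lie at chr1:191183425-191183454 (minus strand) for Atf3, chr2:119351038-119351067 (plus) for Chac1, chr3:50443642-50443690 (minus) for Slc7a11 and chr6:7693214-7693243 (minus) for Asns. Those of Fgf21 and Nupr1 lie at chr7:45615611-45615640 and chr7:126625562-126625591, both on the minus strand. That of Pycr1 lies at chr11:120643833-120643862 (minus), and that of Vldlr, before the second of its RefSeq starts, at chr19:27216809-27216838 (plus). Of the 11 elements found, 9 read TGATGCAA on their own strand. The others were TGATGAAA in Asns and TGATGTAA in Trib3. Slc7a11 was the gene with 2 elements, on opposite strands, from 66 to 59 and from 47 to 40 bases upstream of the start. Atf3 and Nupr1 held theirs at the same distance, from 110 to 103 bases upstream of the RefSeq start. The GENCODE M21 genes of Atf3, Nupr1, Asns and Vldlr begin farther upstream than these stretches. In those 4 genes the printed stretch therefore lies inside the annotated gene. The element of Slc1a4 spanned the start, and that of Trib3 began at base 15 of the transcript. The 10 genes with the element had a median of 42.0 TPM (range 3.02 to 990 TPM), and the 23 with an entry but no match had a median of 43.6 TPM (range 2.41 to 508 TPM). Levels of the genes with and without the element therefore covered overlapping ranges.

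**Figure D2:**
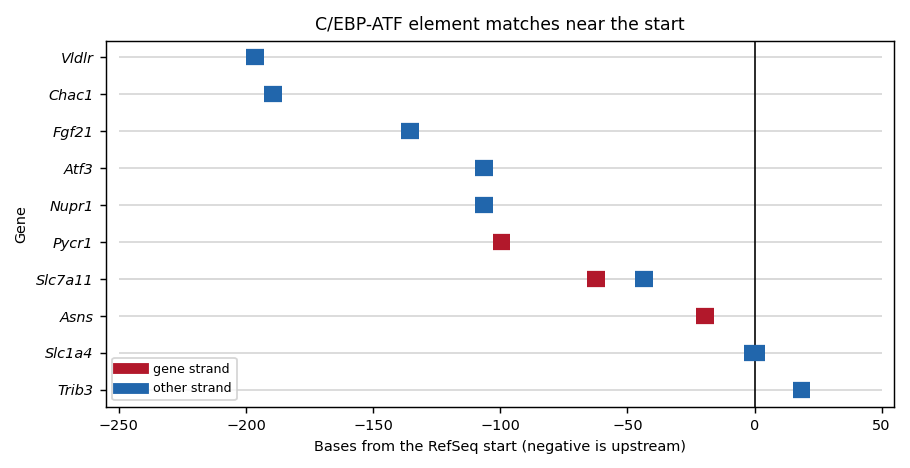
Position of each TGATGNAA match in bases from the RefSeq start, for the 10 genes that hold one. Red marks a match on the gene's strand and blue a match on the other strand. Matches run from Vldlr, 200 bases upstream, to Trib3, just downstream of the start.

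The transcription factors were the highest group, with a median of 216 TPM over 7 genes. Atf3, a leucine-zipper factor induced rapidly by many stresses, stood at 870 TPM in library 1 and 1111 TPM in library 2, a mean of 990 ± 170 TPM (SD, n = 2), the 50th of the 13566 detected genes. Atf5, an ATF4 relative whose mRNA is also controlled at translation, stood at 490 and 526 TPM, and Atf4 at 430 and 476 TPM. Atf5 exceeded Atf4 by 1.12-fold in the mean of both libraries by TPM, whereas by CPM Atf4 was the higher, with a log2 ratio of Atf4 over Atf5 of 0.08. Atf3 exceeded Atf4 2.17-fold, and every one of these values lay above those of the next factors.

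Ddit3, which encodes the pro-apoptotic factor CHOP, stood at 184 and 238 TPM, and Atf3 exceeded it 4.72-fold in library 1 and 4.67-fold in library 2. Nupr1, a small stress-induced nuclear protein, stood at 171 and 261 TPM, the largest ratio between libraries among the factors. In Ddit3, 10.9% of the exon bases overlap other genes, mainly Mars on the opposite strand with 4379 and 3832 reads, so its count is uncertain there. The ranges of both genes overlapped, so the order of Ddit3 and Nupr1 was not resolved. The C/EBP factors were lower. Cebpb stood at 74.6 and 83.3 TPM, and Cebpg, a partner of ATF4, stood at 34.8 and 38.6 TPM. Cebpb exceeded Cebpg 2.14-fold and 2.16-fold by TPM, but by CPM Cebpg was the higher (log2 ratio of Cebpb over Cebpg −0.80). In Cebpb, 20.7% of the exon bases lie opposite exons of Tmem189. The library kit does not mark strand, so the reads there cannot be told apart and the count of Cebpb is uncertain.

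In GENCODE M21 on GRCm38, the single-exon Atf4 gene (ENSMUSG00000042406) spans chr15:80255184-80257541 and Ddit3 (ENSMUSG00000025408) spans chr10:127290774-127296288, both on the plus strand. Atf3 (ENSMUSG00000026628, chr1:191170296-191218039), Atf5 (ENSMUSG00000038539, chr7:44812256-44816658) and Nupr1 (ENSMUSG00000030717, chr7:126623249-126630861) are on the minus strand. A further identifier also carries the symbol Ddit3 and had 0 reads.

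The kinases Eif2ak1 and Eif2ak4 had similar levels. Eif2ak1, the heme-sensing kinase HRI, stood at 19.8 and 19.5 TPM. Eif2ak4, the kinase GCN2 that senses uncharged tRNA, stood at 20.2 and 17.2 TPM. Their ratio was 0.984 in library 1, with a 95% interval of 0.929 to 1.04, and 1.13 (1.06 to 1.21) in library 2, so no order held in both. Beside them, the ER stress kinase Eif2ak3 stood at 41.5 and 46.1 TPM, exceeding Eif2ak1 2.09-fold and 2.37-fold. The double-stranded RNA kinase Eif2ak2 was lowest of the kinases, at 14.6 and 13.0 TPM. The count of Eif2ak1 is uncertain over the 11.6% of its exon bases that overlap other genes.

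The phosphatase subunits, which return eIF2 to its unphosphorylated state, differed widely from each other. Ppp1r15a, the stress-induced subunit GADD34, stood at 378 and 362 TPM. Ppp1r15b, the constitutive subunit CReP, stood at 44.2 and 41.1 TPM. Ppp1r15a exceeded Ppp1r15b 8.54-fold (8.27 to 8.82) in library 1 and 8.81-fold (8.48 to 9.15) in library 2. Antisense overlap covers 11.4% of the exon bases of Ppp1r15b, but the overlapping gene Gm26616 had at most 46 reads, against 4502 and 3295 for Ppp1r15b.

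Among the stress targets, Ddit4, which encodes the mTORC1 inhibitor REDD1, was highest, at 166 and 156 TPM. Chac1, which degrades glutathione, stood at 77.1 and 71.6 TPM. Sesn2, a leucine sensor that restrains mTORC1, stood at 56.9 and 55.5 TPM. Trib3, a pseudokinase that feeds back on ATF4 and CHOP, was far below Ddit3, by which it was exceeded 9.09-fold and 10.8-fold. Its levels were 20.3 and 22.01 TPM. Eif4ebp1, the translation repressor 4E-BP1, stood at 27.7 and 41.3 TPM, with library 2 clearly the higher. Vldlr, a lipoprotein receptor activated by ATF4, was lowest of this group, at 11.9 and 10.3 TPM.

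The serine pathway was uneven along its steps. Phgdh, the enzyme that commits 3-phosphoglycerate to serine, stood at 66.9 and 72.3 TPM. Psat1, which carries out the next step, stood at only 4.23 and 6.86 TPM, and Psph, which carries out the last, at 6.97 and 6.27 TPM. Phgdh exceeded Psat1 15.8-fold (14.1 to 17.8) in library 1 and 10.5-fold (9.50 to 11.7) in library 2, and exceeded Psph 9.60-fold and 11.5-fold. The ratio of Psat1 over Psph was 0.606 (0.527 to 0.696) in library 1 and 1.09 (0.950 to 1.26) in library 2, where the interval included 1, so their order was not resolved. Of the 50-base words of Phgdh, 47.8% also occur in other genes, mainly the pseudogene Gm7901, so its count is uncertain, although Gm7901 itself had 15 and 13 reads. In Psph, 10.4% of the exon bases lie opposite Cct6a, which had 3757 and 3613 reads, so the count of Psph is uncertain as well.

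Of the serine hydroxymethyltransferases, the mitochondrial form was the higher. Shmt2, the mitochondrial form that splits serine into glycine and a one-carbon unit, stood at 34.8 and 37.7 TPM. Shmt1, the cytosolic form, stood at 2.45 and 2.37 TPM, and was exceeded 14.2-fold and 15.9-fold. It had only 173 and 132 reads, and 4.7% of its exon bases lie opposite Smcr8, which had 3147 and 2641 reads. The count of Shmt1, and so this ratio, is uncertain. Mthfd2 and Mthfd1l, which carry the one-carbon unit through the mitochondrion to formate, stood at 38.7 and 48.5 TPM and at 28.6 and 36.6 TPM. Mthfd2 exceeded Mthfd1l 1.36-fold (1.28 to 1.44) in library 1 and 1.32-fold (1.25 to 1.40) in library 2. From a wider list of pathway genes, the cytosolic enzyme Mthfd1 had 54.1 and 66.6 TPM, and Mthfd2l, a mitochondrial relative of Mthfd2, had 3.09 and 2.35 TPM.

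Asparagine and proline synthesis genes were abundant. Asns, the asparagine synthetase that is a classical target of ATF4, stood at 144 and 169 TPM, the highest of the 12 enzymes, and exceeded Psat1 34.0-fold and 24.6-fold. Aldh18a1, which makes the proline precursor, stood at 94.2 and 95.8 TPM. Pycr1, which completes proline in mitochondria, stood at 56.6 and 53.0 TPM.

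The steps of transsulfuration, which turns homocysteine into cysteine, stood far apart. Cbs, the first enzyme, stood at 22.3 and 26.6 TPM with 3040 and 2852 reads. Cth, the second enzyme, stood at 0.335 and 0.375 TPM with 17 and 15 reads. Cbs exceeded Cth 68.8-fold in the mean (log2 ratio of Cth over Cbs −6.10 ± 0.06, SD, n = 2). Counting error alone put Cth between 0.198 and 0.543 CPM in library 1 and between 0.215 and 0.634 CPM in library 2 (exact 95% binomial intervals), which limits this ratio.

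The transporters ranged from 1.80 TPM (Slc7a3) to 183 TPM (Slc7a5) in the mean. Slc7a5, the large neutral amino acid transporter LAT1, stood at 170 and 197 TPM. Slc3a2, the 4F2 heavy chain that carries LAT1 to the membrane, stood at 168 and 175 TPM, so that the ratio of heavy chain to LAT1 was 0.988 (0.962 to 1.01) in library 1 and 0.887 (0.862 to 0.913) in library 2. The heavy chain also serves other light chains. Summed over Slc7a5, Slc7a6, Slc7a7, Slc7a8 and Slc7a11, the 5 light chains examined reached 312 and 329 TPM, and Slc3a2 stood at 0.538 and 0.531 of that sum. Slc7a5 made up 54.5% and 59.8% of it.

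Slc7a11, the cystine transporter xCT that supplies cysteine for glutathione, stood at only 2.51 and 3.53 TPM. Slc7a5 exceeded it 67.7-fold and 55.8-fold. Its merged exons span 13922 bases, the longest of the 39 genes, so TPM sets it lower than its 12.7 and 18.02 CPM do, and which isoforms were read was not tested. The glutamine transporter Slc38a2 stood at 79.6 and 92.2 TPM. By TPM it was 0.469 of Slc7a5 in each library, whereas by CPM it was the higher (log2 ratio of Slc38a2 over Slc7a5 0.16).

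The cationic transporter Slc7a1 stood at 20.6 and 22.05 TPM and its relative Slc7a3 at 1.76 and 1.84 TPM. Slc7a1 exceeded Slc7a3 11.7-fold and 11.9-fold. The arginine and lysine transporter Slc7a2, from the wider list, was higher than both at 139 and 131 TPM. Of the neutral transporters of the SLC1 family, Slc1a4 (ASCT1) stood at 28.8 and 29.4 TPM and Slc1a5 (ASCT2) at 3.16 and 2.36 TPM. Slc1a4 exceeded Slc1a5 10.6-fold in the mean.

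The secreted hormones of the response were low in these cells. Fgf21 had 78 and 60 reads, or 4.51 and 4.40 TPM. Gdf15 had 73 and 85 reads, or 2.17 and 3.20 TPM. The ratio of Gdf15 over Fgf21 was 0.481 (0.344 to 0.670) in library 1 and 0.727 (0.517 to 1.03) in library 2. By CPM, Gdf15 was the lower in library 1, at 1.46 against 1.56 CPM, and the higher in library 2, at 2.18 against 1.54 CPM. Both genes lay among the lower detected genes, at rank 10688 for Fgf21 and 11717 for Gdf15.

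Across the 24 pairs of genes compared, the direction was the same in both libraries for 22. In 20 pairs the 95% interval excluded a ratio of 1 in both libraries. The 2 pairs whose ratios lay on different sides of 1 in the libraries, each with 1 interval that included 1, were Eif2ak1 with Eif2ak4 and Psat1 with Psph. The intervals cover counting error within a library only. Copies of 1 molecule cannot be recognised in these reads, so the intervals may be too narrow even for that.

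**Figure D3:**
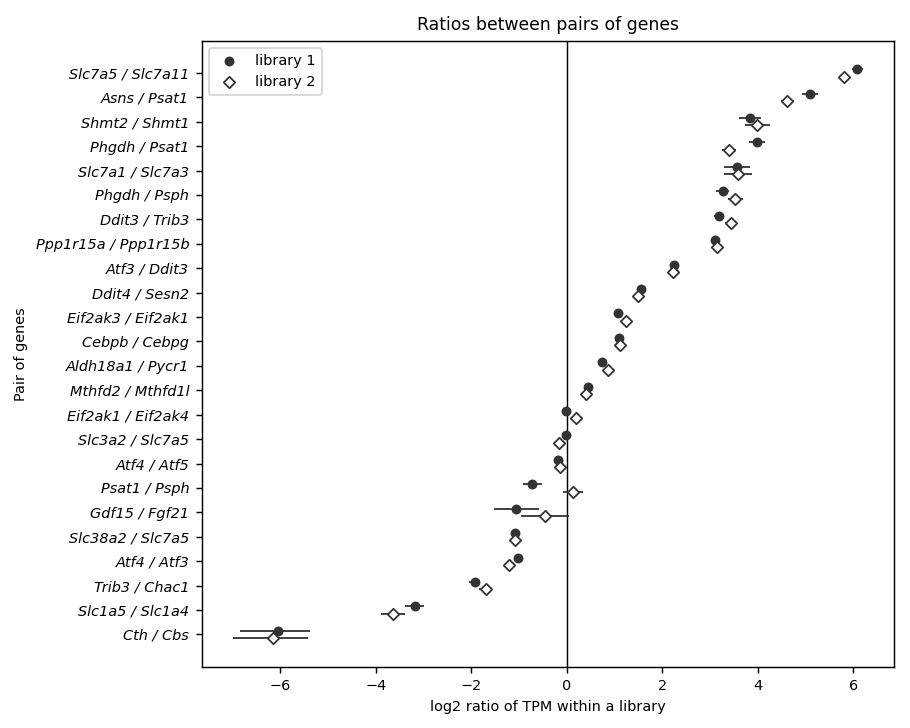
log2 ratio of TPM between 24 pairs of genes within each library, with library 1 as filled circles, library 2 as open diamonds and lines as exact 95% binomial intervals. Slc7a5 over Slc7a11 lies highest, Cth over Cbs lies lowest, and the libraries lie close together for most pairs.

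The libraries were then compared gene by gene. Each of the 20681 genes with 10 or more reads was tested with an exact binomial test against the library totals, with Benjamini-Hochberg adjustment over all of them. The test compares the reads of 2 libraries and not conditions. All 39 genes were tested. None passed with a ratio of 2-fold or more in either direction, where 1.91% of all tested genes were higher and 2.40% lower in library 2. At an unadjusted p under 0.05, 28 of the 39 differed, as did 8240 of all 20681 tested genes. At a mean of 10 CPM or more, 25 of 32 members differed, as did 5419 of all 9286 such genes. With an adjusted p under 0.05 and no limit on size, 21 of the 39 were higher in library 2 and 5 were lower, where 13.4% of all tested genes were higher and 19.0% lower. The remaining 13 did not pass.

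Depth sets how small a difference can pass, so the abundant genes were also counted alone. Of the 32 members with a mean of 10 CPM or more, 19 were higher and 4 lower in library 2, where 21.9% and 28.8% of the 9286 such genes were. The log2 ratio, taken as library 2 over library 1, had a median of 0.13 over the 39 genes and −0.04 over all genes tested. Among genes of 10 CPM or more it was 0.13 for the members and −0.02 for all. The acinar markers, at 170 and 761 CPM, were higher in the same library, and their part in these differences was not tested.

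**Figure D4:**
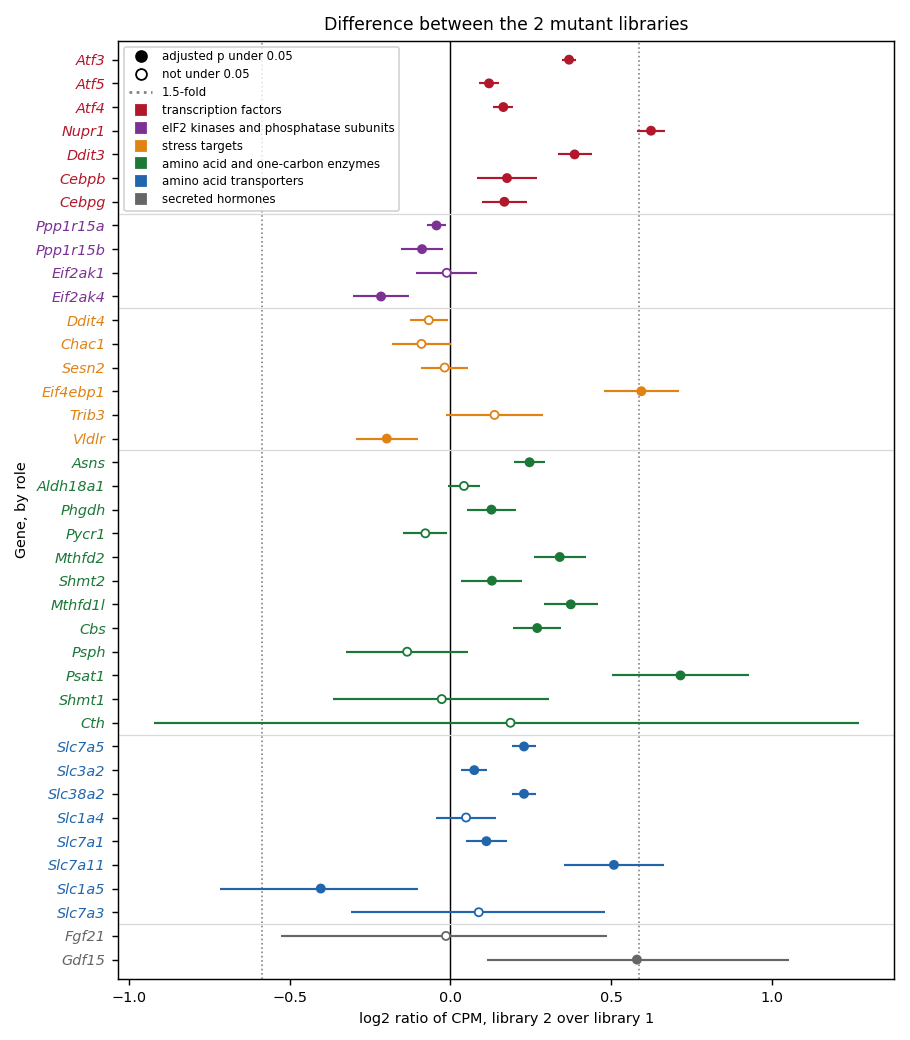
log2 ratio of CPM of library 2 over library 1 for each of the 39 genes, with exact 95% binomial intervals, by role. Filled points have an adjusted p under 0.05 and dotted lines mark 1.5-fold. All 7 transcription factors lie to the right of 0, and the 4 kinases and phosphatase subunits among the 39 genes do not.

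All 7 transcription factors were higher in library 2 and passed the test, where 21.9% of all genes of 10 CPM or more did in that direction. Nupr1 stood at 156 and 241 CPM, a log2 ratio of 0.62 (95% interval 0.58 to 0.67, adjusted p = 3.17e-174 by the exact binomial test). Ddit3 stood at 115 and 150 CPM, a log2 ratio of 0.39 (0.33 to 0.44), and Atf3 at 680 and 879 CPM, a log2 ratio of 0.37 (0.35 to 0.39). The ratios of Atf4, Atf5, Cebpb and Cebpg were smaller, between 0.12 and 0.18.

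Of the kinases and phosphatase subunits Eif2ak1, Eif2ak4, Ppp1r15a and Ppp1r15b, none was higher in library 2. Lower calls covered 3 of these 4, against 19.0% of all tested genes and 28.8% of genes of 10 CPM or more. Eif2ak4 was lower, at 54.6 and 47.0 CPM, a log2 ratio of −0.22 (−0.30 to −0.13, adjusted p = 5.45e-06 by the exact binomial test). Ppp1r15a and Ppp1r15b passed as lower with log2 ratios of −0.04 and −0.09, but neither passed with TMM or DESeq2 scaling, and with DESeq2 the sign of Ppp1r15a turned. Ppp1r15a also did not pass with totals that left out the 10 highest genes. Eif2ak1 did not pass, with a log2 ratio of −0.01 (−0.11 to 0.08). In the wider list, the kinase Eif2ak3 passed as higher, with a log2 ratio of 0.17 (0.11 to 0.23). Eif2ak2 passed there as lower, with a log2 ratio of −0.16 (−0.28 to −0.04). Their group of 11 kinase, eIF2 and eIF2B genes held 4 that passed as higher and 1 as lower.

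Of the 6 stress targets, 1 was higher, 1 was lower and 4 did not pass. Of all tested genes 13.4% were higher and 19.0% lower, and of genes of 10 CPM or more 21.9% and 28.8%. Eif4ebp1 was higher in library 2, at 22.1 and 33.3 CPM, a log2 ratio of 0.59 (0.48 to 0.71, adjusted p = 2.15e-22 by the exact binomial test). Vldlr was lower, at 43.6 and 38.0 CPM, a log2 ratio of −0.20 (−0.29 to −0.10). Trib3, Chac1, Ddit4 and Sesn2 had log2 ratios between −0.09 and 0.14.

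Of the 12 enzymes, 7 were higher in library 2 and none was lower by the test. The shares were 13.4% and 19.0% of all tested genes, and 21.9% and 28.8% of genes of 10 CPM or more. Psat1 had the largest ratio of all 39 genes, with 327 and 418 reads, or 6.52 and 10.7 CPM, a log2 ratio of 0.72 (0.50 to 0.93, adjusted p = 1.97e-10 by the exact binomial test). Mthfd1l and Mthfd2 followed. Mthfd1l stood at 46.0 and 59.6 CPM (log2 ratio 0.37) and Mthfd2 at 49.0 and 62.0 CPM (log2 ratio 0.34). Cbs, Asns, Shmt2 and Phgdh passed with log2 ratios from 0.13 to 0.27. Psph, at 10.95 and 9.97 CPM, did not pass, with a log2 ratio of −0.13 (−0.33 to 0.05). Aldh18a1, Pycr1, Shmt1 and Cth did not pass either, and Aldh18a1 passed as higher with TMM or DESeq2 scaling.

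Of the 8 transporters, 5 were higher in library 2 and 1 was lower. The shares were 13.4% and 19.0% of all tested genes, and 21.9% and 28.8% of genes of 10 CPM or more. Slc7a11 was higher, at 12.7 and 18.02 CPM, a log2 ratio of 0.51 (0.35 to 0.67, adjusted p = 1.53e-09 by the exact binomial test). Slc7a5 and Slc38a2 were each higher by a log2 ratio of 0.23, and Slc7a1 and Slc3a2 by 0.11 and 0.07. Slc1a5 passed as lower, with 240 and 141 reads and a log2 ratio of −0.40 (−0.72 to −0.10), but did not pass with TMM or DESeq2 scaling. Of the hormones, Gdf15 passed as higher with a log2 ratio of 0.58 (0.11 to 1.05), but did not pass when all genes with 1 or more reads were tested (adjusted p = 0.0693 by the exact binomial test), and Fgf21 did not pass.

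At 1.5-fold, 3 of the 39 genes passed as higher in library 2, Nupr1, Eif4ebp1 and Psat1, and none as lower. The shares of all tested genes were 3.30% and 4.75%. Among genes of 10 CPM or more, where the members passing were Nupr1 and Eif4ebp1, the shares were 1.68% and 1.67%.

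**Figure D5:**
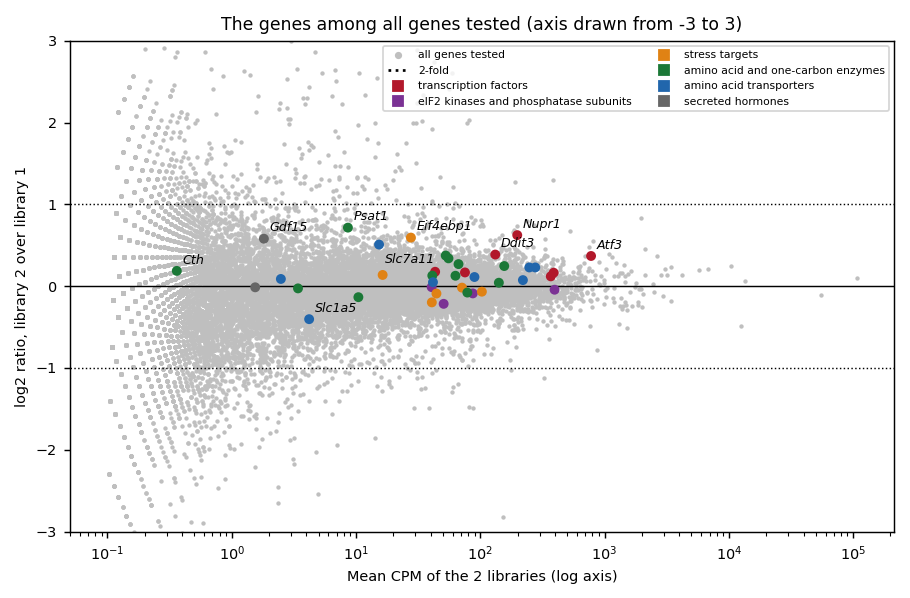
log2 ratio of library 2 over library 1 against mean CPM (log axis), with all 20681 genes tested in grey and the 39 genes coloured by role. Dotted lines mark 2-fold, and 118 genes lie outside the axis limits of −3 and 3. All 39 coloured points lie between the dotted lines.

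A wider list of 52 genes of the same pathway was measured beside the 39. It held the other eIF2 kinases, subunits of eIF2 and its exchange factor eIF2B, relatives of the targets, and further enzymes and transporters. Of the 52, 48 reached 1 CPM in both libraries, and their median was 22.2 TPM. All 11 genes of the kinase, eIF2 and eIF2B group were detected, between 7.20 and 50.6 TPM in the mean, from Eif2b3 to Eif2b2, which both encode subunits of eIF2B. The highest of the 52 in the mean was Glul, the glutamine synthetase, at 205 and 155 TPM. The transporters Slc38a4, at 137 and 157 TPM, Slc7a2, and Slc7a8, at 124 and 112 TPM, were also among the 5 highest.

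The lowest of the wider list were Slc38a1, Jdp2, Slc43a1, Slc38a3 and Slc1a1, from 0.0566 TPM for Slc38a1 to 0.57 TPM for Slc1a1 in the mean. Between the libraries, 13 of the 52 were higher in library 2 and 11 lower with an adjusted p under 0.05. The shares were 13.4% and 19.0% of all tested genes, and 21.9% and 28.8% of genes of 10 CPM or more. The median log2 ratio of the 52 was 0.05. Slc38a3, a glutamine transporter, was the 1 gene of 52 that passed at 2-fold, where 1.91% of all tested genes did in that direction, with 0.439 and 1.05 CPM (log2 ratio 1.25, adjusted p = 0.00379 by the exact binomial test). Stc2, which encodes a secreted glycoprotein induced by ATF4, was higher by a log2 ratio of 0.77, at 2.65 and 4.54 CPM. Glul was lower in library 2, by a log2 ratio of −0.38.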

How the data were processed

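Both libraries were analysed as 1 group. The deposited raw counts per gene, CPM and TPM values were used as the authors made them, per the file headers. Trimming, alignment and counting tools are listed only by name in the submitters' processing notes, as cutadapt 2.10, STAR 2.7.8a and featureCounts 2.0.2, with build GRCm38.p6. For parameters, strand and multimapping reads, the setting is not given in the sources used here. Gene lengths implied by the deposited TPM matched merged exons of GENCODE M21 for the 39 genes. A symbol with several identifiers took the one with most reads. Detection meant 1 CPM or more in both libraries. The exact two-sided binomial test ran on the counts of all 20681 genes with 10 or more reads, with Benjamini-Hochberg adjustment, and ratios had 0.5 read added. edgeR's quasi-likelihood test needs a second group and was not run. Intervals are exact Clopper-Pearson at 95%. Scaling alternatives used edgeR 4.0.16 and DESeq2 1.42.0, and other steps Python 3.11.15 with SciPy 1.17.1. The test was checked on simulated counts that varied by counting error only, with planted changes larger than 2-fold and calls counted at 2-fold or more. That check does not cover further spread between real libraries, or calls without a limit on size. The genes, roles, pairs and lists were chosen with earlier results of these data known. The limit of 10 CPM for abundant genes was added after the data were seen. All 39 genes are named, with the library difference of those called and of the 3 largest in each direction at 10 CPM or more. Of the wider list the 5 highest, the 5 lowest and those called are named, except 1 gene that is not reported here, and Eif2ak2, Eif2ak3, Eif2b2, Eif2b3, Mthfd1 and Stc2 were added beside their relatives. Shared sequence was the share of a gene's 50-base words found in transcripts of other genes.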

Additional observations from a re-analysis of the deposited data

How the results depend on the processing

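The count of detected genes was 38 with a limit of 0.5 CPM, in each library alone and with identifiers summed, and 33 with a limit of 5 CPM. The count called higher in library 2 was 0 at 2-fold under TMM, DESeq2 size factors, totals without the 10 highest genes, other filters and another pseudocount, and became 3 at 1.5-fold. The count called lower stayed at 0 under all of these. The median log2 ratio ranged from 0.13 to 0.17 over the scalings and was 0.13 for members of 10 CPM or more, a limit chosen after seeing the data. DESeq2 size factors turned the log2 ratio of Ppp1r15a to 0.00025. The stricter motif ATTGCATCA was held by 3 genes and the shorter TGATGNA by 14 of 33, against 13.8% of all genes with an entry. Without length scaling, 5 of 24 pair ratios changed sign. On the log2 scale they became 0.076 for Atf4 over Atf5, −0.80 for Cebpb over Cebpg, 0.16 for Slc38a2 over Slc7a5, −0.32 for Eif2ak1 over Eif2ak4 and 0.20 for Gdf15 over Fgf21. No paired analysis was possible because there is 1 group. With 2 libraries, the SD rests on 1 difference, and depth limits Cth, Gdf15 and Fgf21.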

Other observations

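The promoters of these genes held more CG dinucleotides than the typical promoter in RefSeq. Over the 39 promoter entries of the 33 genes with an entry, the median was 20 CG per 300 bases (range 1 to 50), against 7 over all 32851 entries. Cebpb held 50, the most. Among the genes with the C/EBP-ATF element, Slc7a11 held 4 and Nupr1 6, whereas Atf3 held 27 and Asns 20. No test was made of this difference, since all entries include many non-coding genes.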
